A study of Mus musculus with 8 samples.

Results

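The small heat shock proteins are a family of chaperones built around the alpha-crystallin domain. They bind unfolding proteins without using ATP, form large mixed oligomers, and hand their clients on to the ATP-driven chaperones or to autophagy. Striated muscle holds more members than most tissues, and several of them bind desmin, titin, filamin and thin filaments. Hspb2 and Hspb3 are made mainly in heart and skeletal muscle, whereas Hspb1 and Cryab are also induced by heat and other stress through the heat shock factor Hsf1.

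The members studied here were Hspb1, Hspb2, Hspb3, Hspb6, Hspb7, Hspb8 and Cryab, taken as every array probe whose transcript accession maps to one of these symbols. This gave 8 probes for the 7 genes, among 55681 non-control probes that cover 20145 named genes. Cryab had 2 probes and each other member 1. All 8 probes were well above background on all 8 arrays, so every member was tested, beside 12738 named genes in all.

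The tissue was extensor digitorum longus (EDL), which in the mouse lower hindlimb is made up mostly of fast fibres. All mice were C57BL/6 males, and each gave 1 array. The PCKO group (4 mice) carried an inducible knockout of p300 (Ep300) and CBP (Crebbp) that is specific to skeletal muscle, although the genotype field of these mice names only CBP. The comparison group (4 mice) was wild type (WT). The same treatment text is attached to both groups, which gives tamoxifen by mouth (gavage) on 5 days in mice that were 13 to 15 weeks old at the start, then a wait of 1 day and a fast of 4 h before the muscle was taken. The promoter driving the recombinase, and whether WT mice carried floxed alleles, are not given in the sources used here. The comparison asks how these transcripts stand within days of losing a pair of acetyltransferases that act as transcriptional coactivators.

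Values below are log2 spot intensities above the 75th percentile of the same array, given for replicates 1 to 4 in that order. Differences are given as PCKO minus WT ± the limma standard error (4 mice per group), and adjusted p-values are Benjamini-Hochberg values over all 12738 genes. In that fit 71.0% of genes passed an adjusted p of 0.05, 32.7% lower and 38.3% higher in PCKO, so a call by itself does not set a gene apart. The skeletal muscle fibre markers Ckm, Acta1, Myh4, Myh1, Tnnt3, Tnni2, Actn3 and Mylpf were well above background on all 8 arrays. Ep300 differed by -1.44 ± 0.11 and Crebbp by -0.70 ± 0.11, from probes whose place relative to the deleted parts is not known here. Scaling to control transcripts spiked into each sample (below) raises every gene by 0.68 log2 units, close to the size of the Crebbp difference. In whole muscle, fewer cells of a type and less RNA per cell cannot be told apart. In both slide rows PCKO arrays lay in columns 1 and 2 and WT arrays in columns 3 and 4, so slide column and group cannot be told apart.

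Of the 7 members, 4 passed as lower in PCKO muscle (Hspb2, Hspb3, Hspb8 and Hspb7) and none as higher, against a background of 32.7% lower and 38.3% higher. The other 3, Hspb6, Hspb1 and Cryab, did not pass the threshold. Among 23 alternative settings, Hspb7 lost its call in 8 and Cryab passed as higher in 9. The median difference of the members was -1.20, beside 0.06 over all genes tested. In 3 members (Hspb2, Hspb3 and Hspb8) all PCKO values lay below all WT values, which was true of 29.7% of the 12699 genes with a value on every array. No member lay wholly above WT, where 36.1% of those genes did (65.8% in either direction). The members were far from uniform, since their differences ran from -3.85 in Hspb2 to 0.52 in Cryab.

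**Figure D1:**
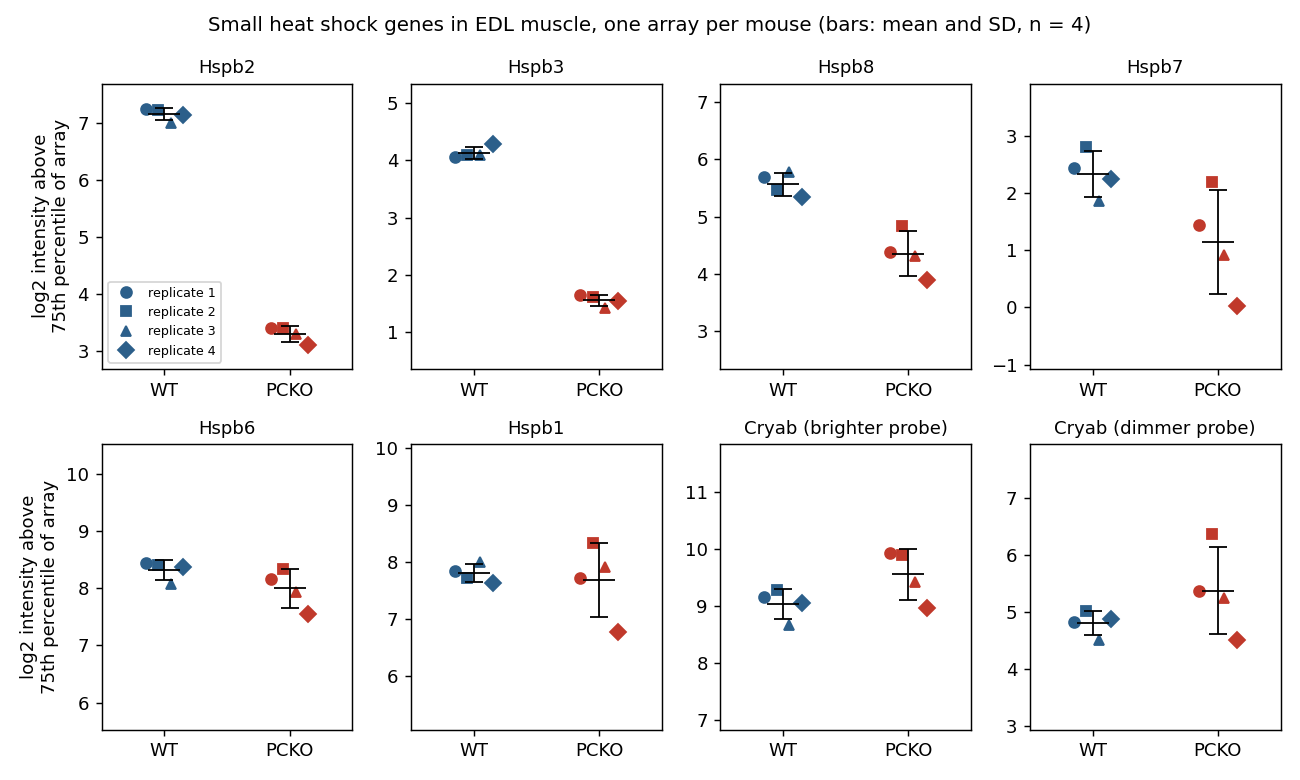
Log2 intensity above the 75th percentile of the array for the 8 probes, 1 point per mouse (marker shape gives the replicate number), with the mean and SD of 4 mice; every panel spans 5 log2 units. Hspb2 and Hspb3 form tight and separate groups, while in most other panels PCKO replicate 2 is high and PCKO replicate 4 low.

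Hspb2 and Hspb3, which assemble with each other into a muscle-specific complex and are switched on during myogenic differentiation, fell most. Hspb2 read 7.24, 7.23, 7.01 and 7.14 in WT muscle and 3.40, 3.41, 3.29 and 3.11 in PCKO muscle. The lowest WT mouse stood 3.60 log2 units above the highest PCKO mouse. This is a difference of -3.85 ± 0.09, or 14.4-fold (limma, adjusted p = 1.4e-08), and only 154 of the 12738 genes had a lower one. Hspb3 read 4.07, 4.09, 4.10 and 4.29 in WT and 1.64, 1.60, 1.41 and 1.54 in PCKO. Its groups were again apart, by 2.43 log2 units. The difference was -2.59 ± 0.08, or 6.00-fold (limma, adjusted p = 5.4e-08), with 385 genes lower than it. Both kept their direction and their call in every alternative run on them, from -3.90 to -3.17 for Hspb2 and from -2.72 to -1.91 for Hspb3. Within slide row 1 and slide row 2 alone Hspb2 differed by -3.83 and -3.87, and Hspb3 by -2.46 and -2.72.

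Cryab (alpha B-crystallin, or HspB5) is the neighbour of Hspb2 on chromosome 9 and its partner in a divergent arrangement, with the genes transcribed away from each other. Cryab is abundant in muscle and lens and binds desmin and titin. Its brighter probe read 9.16, 9.28, 8.66 and 9.07 in WT and 9.93, 9.90, 9.43 and 8.98 in PCKO. PCKO replicates 1 to 3 lay above every WT mouse, and PCKO replicate 4 fell inside the WT range. The difference of 0.52 ± 0.23 did not pass (limma, adjusted p = 0.070), with a 95% interval from -0.004 to 1.03. It passed without PCKO replicate 4 (0.71, adjusted p = 0.0097). With replicate number or slide row as a block it passed as well (limma, adjusted p = 0.034 and 0.013). The dimmer probe, of the same transcript accession, read 4.83, 5.01, 4.50 and 4.87 in WT and 5.37, 6.37, 5.25 and 4.50 in PCKO. There too PCKO replicate 4 was the lowest value of its group, and the difference was 0.57 ± 0.34 (limma over 24867 probes, of which 65.1% passed, adjusted p = 0.17).

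Hspb2 and Cryab were therefore compared within each array, where the scaling between arrays cancels. Hspb2 minus Cryab was -1.92, -2.05, -1.66 and -1.93 in WT and -6.53, -6.49, -6.13 and -5.86 in PCKO. The relation of these neighbours shifted by -4.36 log2 units, or 20.6-fold (two-sided exact permutation test, p = 0.029, which is the lowest value that 4 against 4 mice can give, adjusted p = 0.040 over 21 pairs). With the dimmer Cryab probe the shift was -4.42 (exact permutation test, p = 0.029). The neighbour of Cryab on its other side in the RefSeq gene order, 2310030G06Rik, was higher in PCKO by 1.03 ± 0.17 (limma, adjusted p = 5.7e-04). The gene on the far side of Hspb2, 1110032A03Rik, was not tested because its signal was too close to background.

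Hspb1 (HSP25, the mouse form of HSP27) is a stress-induced chaperone of actin and intermediate filaments that is phosphorylated by the p38 kinase cascade. It read 7.84, 7.72, 8.00 and 7.63 in WT and 7.72, 8.32, 7.91 and 6.78 in PCKO. The groups overlapped, because PCKO held both the highest and the lowest of the 8 values. Its difference of -0.11 ± 0.29 did not pass (limma, adjusted p = 0.74), with a 95% interval from -0.77 to 0.54, and without PCKO replicate 4 it was 0.19. In slide row 1 alone it was 0.24 and in slide row 2 alone -0.47.

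Hspb6 (HSP20) is a muscle chaperone whose phosphorylation accompanies the relaxation of smooth muscle. Hspb6 read 8.45, 8.41, 8.07 and 8.37 in WT and 8.16, 8.34, 7.94 and 7.55 in PCKO. The ranges overlapped through WT replicate 3 and PCKO replicates 1 and 2. The difference of -0.33 ± 0.17 did not pass (limma, adjusted p = 0.11, 95% interval from -0.71 to 0.06). It passed without PCKO replicate 2 (-0.44, adjusted p = 0.042) and with slide row as a block (adjusted p = 0.048), and was -0.18 and -0.47 within rows 1 and 2.

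Hspb8 (HSP22) works with the co-chaperone Bag3 in the autophagic removal of damaged filamin and other Z-disc proteins. Hspb8 read 5.69, 5.46, 5.78 and 5.34 in WT and 4.37, 4.84, 4.31 and 3.88 in PCKO. The groups were separated by 0.50 log2 units. It fell by 1.22 ± 0.19 on the log2 scale, or 2.32-fold (limma, adjusted p = 5.0e-04), and by 0.97 and 1.46 within slide rows 1 and 2.

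Hspb7 (cvHsp) keeps thin filaments and filamin C in order in heart and skeletal muscle. Hspb7 read 2.44, 2.82, 1.86 and 2.25 in WT and 1.44, 2.20, 0.92 and 0.03 in PCKO. PCKO replicate 2 lay inside the WT range and PCKO replicate 4 far below it. It fell by 1.20 ± 0.42 on the log2 scale, or 2.29-fold (limma, adjusted p = 0.031). That call was lost without PCKO replicate 4 (-0.82, adjusted p = 0.052), PCKO replicate 3 (-1.12, 0.070), WT replicate 1 (-1.16, 0.066), WT replicate 2 (-1.04, 0.080) or WT replicate 4 (-1.23, 0.053). Slide row 1 alone gave -0.81 and slide row 2 alone -1.58. Hspb7 was spotted 10 times per array, which measures the error between spots of 1 array (3 spots of WT replicate 4 were left out as outliers). On the 8 arrays the SD between its spots was 0.06 to 0.10, which holds no error of RNA preparation, labelling, hybridisation or scaling. Between mice the SD was 0.91 in PCKO and 0.40 in WT, and 0.70 and 0.53 with spike-in centring.

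Directions near 0 depended on how arrays were put on a common scale. Relative to labelled control transcripts spiked into each sample, the 75th percentile averaged -2.80 ± 0.34 in PCKO and -3.48 ± 0.30 in WT (SD, n = 4). These differ by 0.68 log2 units (two-sided exact permutation test, p = 0.029), by which spike-in centring raises every gene. Centred on those spike-ins, the split of all calls moved from 53.9% higher to 85.0% higher. Hspb2 then differed by -3.17 and Hspb3 by -1.91, while Hspb8 (-0.54) and Hspb7 (-0.52) no longer passed. Cryab passed as higher in PCKO with spike-in centring (1.19), quantile normalization (1.10, adjusted p = 0.0017), another background correction (0.78, adjusted p = 0.0041) and the deposited values (1.14, adjusted p = 3.1e-04). The sign of Hspb1 and Hspb6 was not fixed. Hspb1 was at 0.35 and Hspb6 at 0.15 under quantile normalization, and at 0.56 and 0.35 with spike-in centring, none past the threshold.

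**Figure D2:**
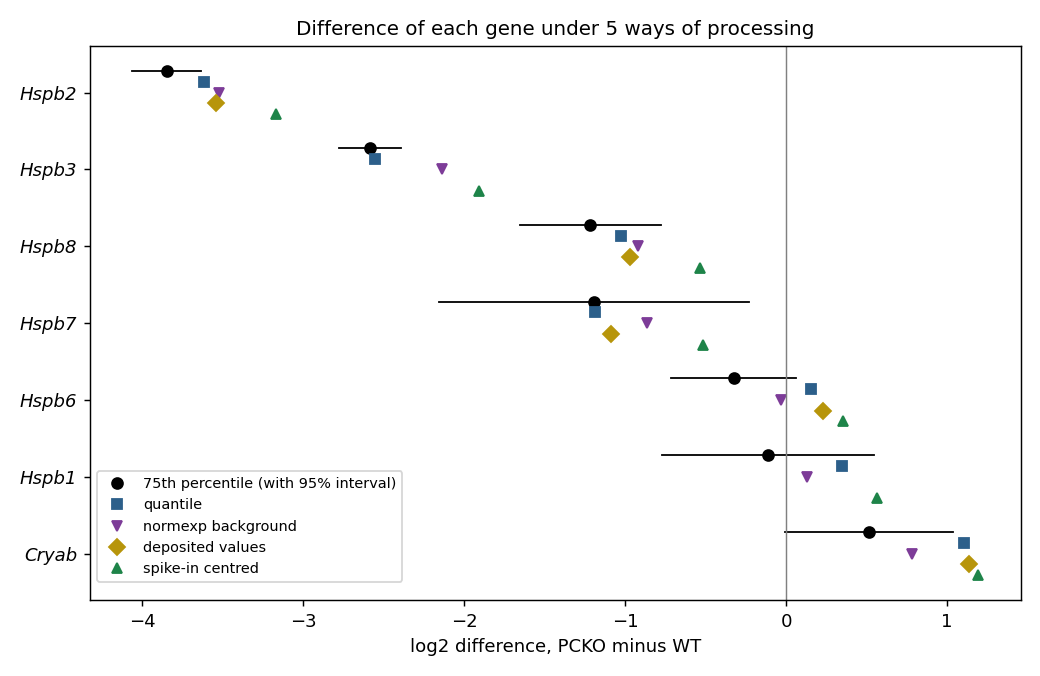
Log2 difference (PCKO minus WT) of each member under 5 ways of processing, with the 95% interval of the main fit as a line; the deposited values hold no entry for Hspb3 and Hspb1. Hspb2 under all 5 and Hspb3 under the 4 run on it stay far left of 0, Cryab stays right of it, and Hspb6 and Hspb1 cross it.

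Members were also compared with each other within each array, where any shift of a whole array cancels. Of the 21 pairs of members, 15 shifted against each other between groups (exact permutation tests on the within-array difference, two-sided, adjusted p = 0.040 for each, with the groups apart in all of them). Among single genes 65.8% already had groups that did not overlap. Pairs of other genes were not compared, so this count cannot be read as a trait of the family. Hspb2 shifted against all 6 other members, by -1.26 log2 units relative to Hspb3, -2.63 relative to Hspb8 and further relative to the rest. Cryab shifted against 5 of the 6 others, and Hspb1 minus Cryab stood at -0.63 without passing (exact permutation test, p = 0.057, adjusted p = 0.063). Hspb6 minus Cryab shifted by -0.84 log2 units. Hspb7 and Hspb8 moved alike to within 0.02 log2 units on average (exact permutation test, p = 0.91), but the difference between this pair varied with an SD of 0.53 in each group, so a small unequal change could not be seen. Hspb1 and Hspb6 differed by 0.21 (exact permutation test, p = 0.37).

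**Figure D3:**
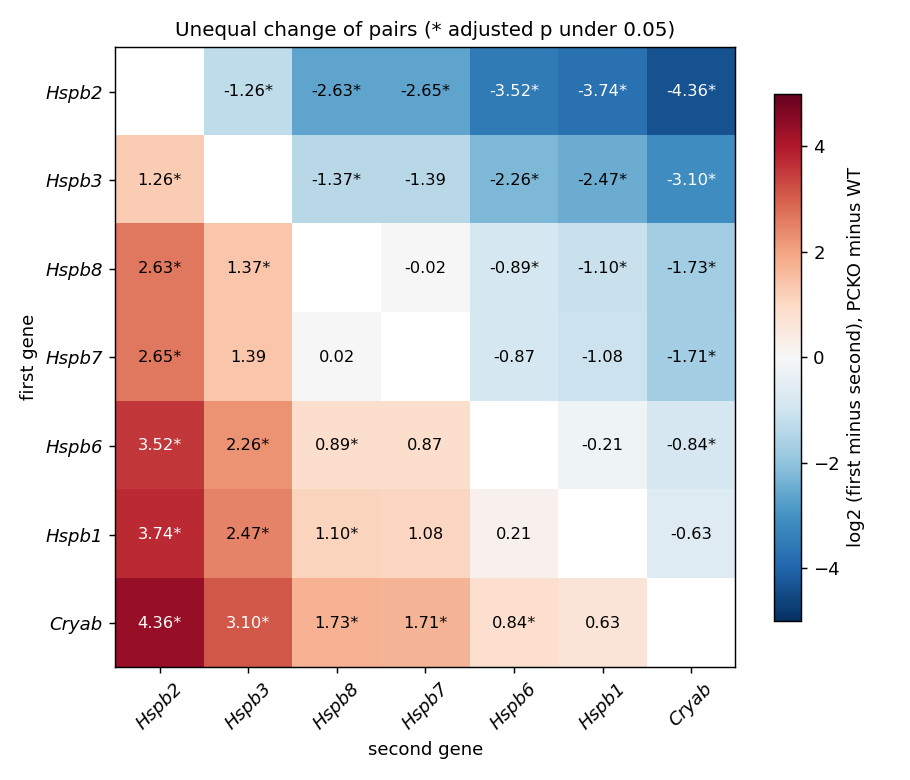
For each pair of members, the change between groups of the within-array log2 value of the first gene (rows) minus the second (columns), in log2 units; stars mark adjusted p under 0.05 over 21 pairs. The Hspb2 row runs from -1.26 against Hspb3 to -4.36 against Cryab, and Hspb7 against Hspb8 is near 0.

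The members also differed in how much they varied between PCKO mice. Hspb2 and Hspb3 varied little, with SDs of 0.14 and 0.10 between PCKO mice, where the median over tested genes was 0.13. The other members had SDs of 0.34 (Hspb6), 0.39 (Hspb8), 0.45 (Cryab), 0.65 (Hspb1) and 0.91 (Hspb7), each larger than those of at least 87.4% of tested genes. Which group varied more depended on the scaling. At the 75th percentile the SD was larger in PCKO than in WT for 6 of the 7 members (40.4% of all genes), and under quantile normalization for 7 (42.3%). With another background correction this held for 5 (20.0%), and with spike-in centring for 3, namely Hspb1, Hspb7 and Hspb8 (49.0%). Cryab then turned to an SD of 0.18 in PCKO against 0.42 in WT, and Hspb6 to 0.20 against 0.33. PCKO replicate 2 was the highest PCKO mouse in 5 members and replicate 4 the lowest in 6, while over all genes these arrays were highest and lowest in 24.8% and 27.0%. The array of PCKO replicate 4 also had the highest 75th percentile relative to the spike-ins (-2.40). With spike-in centring the range between PCKO mice went from 1.55 to 1.05 log2 units for Hspb1, from 0.95 to 0.43 for Cryab and from 2.17 to 1.67 for Hspb7, but from 0.30 to 0.51 for Hspb2 and from 0.23 to 0.70 for Hspb3. PCKO replicate 4 then stayed lowest in Hspb1, Hspb7 and Cryab, but became the highest PCKO mouse in Hspb2 and Hspb3. PCKO replicate 1 was then the lowest in Hspb2, Hspb3, Hspb6 and Hspb8. The part of scaling in this spread was not tested further. In PCKO, the within-array difference of Hspb6 and Cryab had an SD of 0.15, and that of Hspb6 and Hspb8 an SD of 0.12. Both were below the SD of either gene alone. In WT these SDs were 0.12 and 0.33, and the latter exceeded those of Hspb6 (0.17) and Hspb8 (0.20) alone. These pairs come from 21, and pairs of other genes were not compared.

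**Figure D4:**
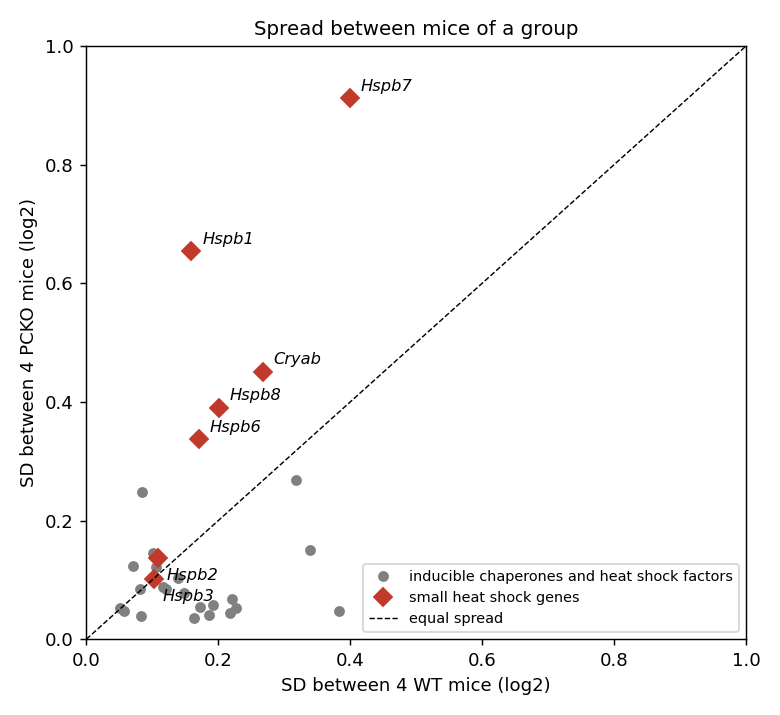
SD of log2 values between the 4 WT mice (horizontal axis) and the 4 PCKO mice (vertical axis) at 75th-percentile scaling, for the 7 members and for 22 inducible chaperones and heat shock factors, with the line of equal spread dashed. Hspb7, Hspb1, Cryab, Hspb8 and Hspb6 lie above every gene of the chaperone list, whose PCKO SDs reach 0.27, and Hspb2 and Hspb3 lie among them.

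Promoter letters are shown for the strongly lowered Hspb3, for Hspb8, which fell less, and for the stress-induced Hspb1, which did not pass. RefSeq windows (GRCm38.p6) matched 5 of the 7 members, without Hspb2 and Cryab, and the 250 bases before each gene start were searched on both strands. Capitals mark a MEF2 site (the target of the myogenic MEF2 factors), the letters TATAAA or the 2-unit form of the heat shock element. That element, GAANNTTC or TTCNNGAA, is bound by Hsf1. The windows are chr13:113663677-113663926 on the minus strand (Hspb3), chr5:116422865-116423114 on the minus strand (Hspb8) and chr5:135887669-135887918 on the plus strand (Hspb1).
Hspb3: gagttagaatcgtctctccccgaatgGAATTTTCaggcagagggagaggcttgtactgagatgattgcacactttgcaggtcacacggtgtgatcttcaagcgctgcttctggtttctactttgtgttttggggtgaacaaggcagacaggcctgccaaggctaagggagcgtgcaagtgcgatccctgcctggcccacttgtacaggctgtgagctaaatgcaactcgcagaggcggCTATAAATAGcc
Hspb8: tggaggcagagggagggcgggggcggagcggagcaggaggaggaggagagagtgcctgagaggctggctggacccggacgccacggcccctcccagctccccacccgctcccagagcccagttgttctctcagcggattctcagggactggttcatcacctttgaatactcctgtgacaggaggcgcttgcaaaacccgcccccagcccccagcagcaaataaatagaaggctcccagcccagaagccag
Hspb1: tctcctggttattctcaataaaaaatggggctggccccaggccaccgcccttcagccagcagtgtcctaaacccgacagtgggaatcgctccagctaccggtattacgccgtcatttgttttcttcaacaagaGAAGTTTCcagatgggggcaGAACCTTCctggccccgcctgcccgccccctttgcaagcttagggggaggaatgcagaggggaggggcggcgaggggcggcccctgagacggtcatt
In the Hspb3 window a MEF2 site that contains a TATAAA lies at -12 to -3 relative to the gene start, a match held by 0.508% of 32851 windows of this length. Hspb3 also holds 1 GAANNTTC, further upstream. Hspb1 holds 2 GAANNTTC, at -117 to -110 and at -97 to -90, a motif found in 6.69% of windows (TTCNNGAA in 7.17%, TATAAA in 12.4%). Hspb8 holds none of the motifs marked, and neither does Hspb7. The second of the Hspb6 windows, at chr7:30553051-30553300, holds 1 GAANNTTC and 1 TATAAA. No member's window held the 3-unit element, which extends either form by a further GAA or TTC after any pair of bases (0.466% of windows), or a CArG box (1.47%). The E-box CANNTG (66.2% of windows), TGACG (17.8%) and GGGCGG (32.7%) were searched as well and are not marked. These are matches of letters only.

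The genes around the family were read from lists that had been written with earlier results of these data known. Among 22 inducible chaperones and heat shock factors, 8 were lower and 6 higher, and their median was 0.03, where that of all genes was 0.06. Hsf1, the main activator of stress chaperones, fell by 1.06 ± 0.08 on the log2 scale (limma, adjusted p = 4.4e-06), and by 0.38 without passing when centred on spike-ins. Hspa1l, a testis-enriched HSP70, fell by 2.04 ± 0.12 (limma, adjusted p = 1.6e-06). The risers were led by Hspa4l, an HSP110-type exchange factor (1.56 ± 0.09), and Hspa2, another HSP70 (1.04 ± 0.11). Hsp90aa1, the stress-inducible HSP90, also rose (0.69 ± 0.11, limma, adjusted p = 6.1e-04), as did the HSP40 Dnaja1 (0.44 ± 0.10). The stress-inducible Hspa1a (0.03), Dnajb1 (0.01) and Hsph1 (0.00) did not pass, but passed as higher with spike-in centring (0.70, 0.69 and 0.68), where the median of all genes was 0.73. With spike-in centring 1 of the 22 was lower and 14 were higher, where 9.44% of all genes were lower and 53.5% higher. With quantile normalization these counts were 7 and 10, against 29.0% and 43.3% of all genes. The list's counts thus lay near those of all genes.

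In chaperone-assisted selective autophagy, the route in which Hspb8 and Bag3 act, 4 of 7 genes were lower and 1 higher, at a median of -0.65. Over all genes 32.7% were lower and 38.3% higher, at a median of 0.06. Bag3 itself fell by 0.71 ± 0.12 (-0.03 with spike-in centring). Synpo2, which links the Bag3 complex to membrane fusion, had -1.48 ± 0.14 for its brightest probe, while its other probe gave -5.53. Dnajb6, a J-domain partner of Bag3, had -1.34 ± 0.09 for its brightest probe (-0.66 with spike-in centring, without passing). Of its 3 other probes, that at -1.33 passed. Those at -0.27 and -0.15 did not (limma over probes, adjusted p = 0.053 and 0.33). Flnc, filamin C, the main client of this route, was 2.43-fold higher (1.28 ± 0.20, limma, adjusted p = 5.1e-04) and stayed higher with quantile normalization (1.81) and spike-in centring (1.96). With spike-in centring the list had 1 lower and 2 higher genes and a median of 0.02. All genes then had 9.44% lower, 53.5% higher and a median of 0.73.

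Among 12 partners, clients and kinases of the small heat shock proteins, 11 were lower and 1, Flnc, higher, at a median of -1.66. Over all genes 32.7% were lower and 38.3% higher, at a median of 0.06. Dmpk, the myotonic dystrophy kinase that Hspb2 binds, fell by 5.46 ± 0.13 (limma, adjusted p = 1.1e-08) and by 4.58 at its other probe. Acta1, skeletal actin, which is also among the fibre markers, fell by 3.01 ± 0.18. The p38 kinase Mapk14 (-2.15 ± 0.07) and the kinases Mapkapk2 (-1.66 ± 0.07) and Mapkapk3 (-1.46 ± 0.09), which phosphorylate Hspb1, were lower as well. So were the clients Des, desmin (-1.65 ± 0.20), Ttn, titin (-1.83 ± 0.09 at its brightest probe and -4.59 to -2.90 at 3 others), and Vim, vimentin (-1.31 ± 0.19). With spike-in centring 8 of the 12 were lower and 1 higher, where 9.44% of all genes were lower and 53.5% higher. The remaining family members Cryaa, Hspb9 and Odf1 were on the array but well above background on at most 1 array, and were not tested.

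**Figure D5:**
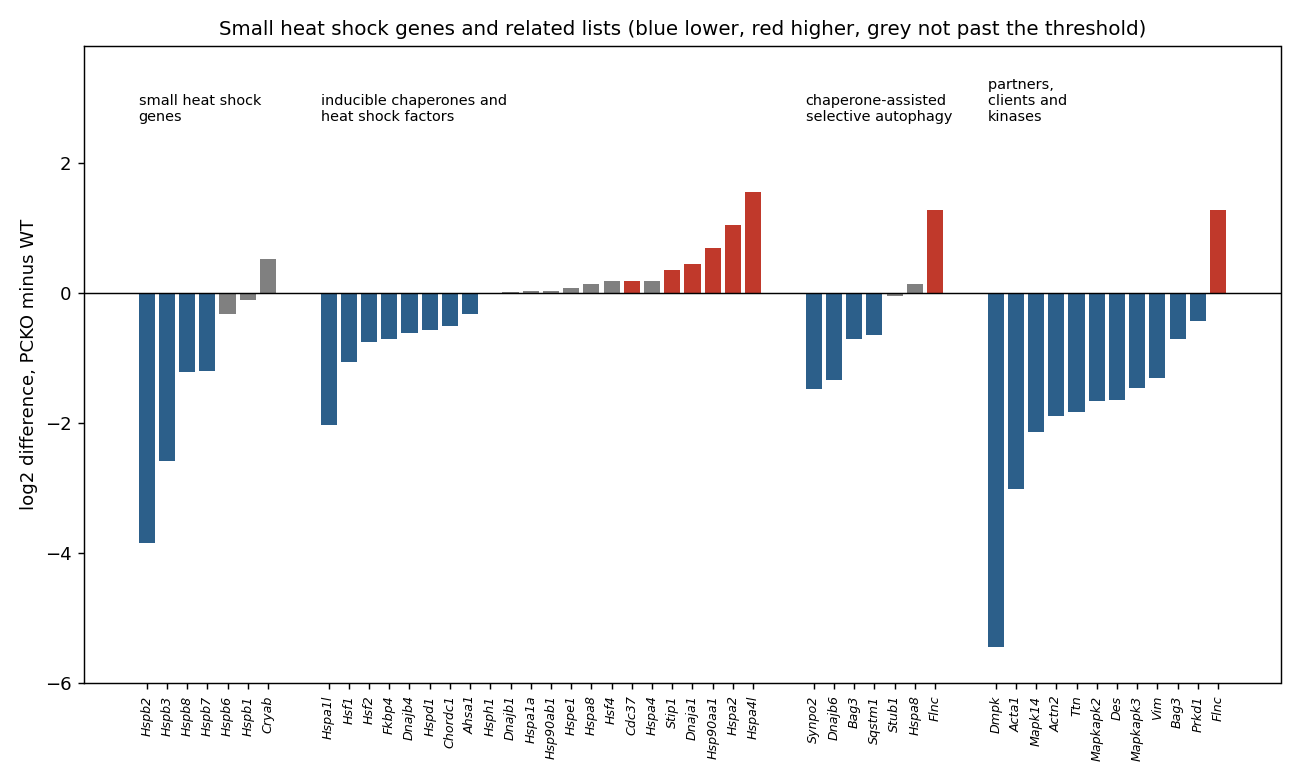
Log2 difference (PCKO minus WT) of each tested gene in 4 lists; blue bars passed as lower, red bars as higher, and grey bars did not pass. The partner list reaches -5.46 at Dmpk, the chaperone list runs both ways, and Flnc is the riser in both lists that hold it (Bag3 is in both as well).

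Several neighbours of members in the RefSeq gene order were tested too. Beside Hspb3, Arl15 was higher by 0.31 ± 0.08 and Snx18 stood at -0.13 ± 0.07, without passing. Ywhag, a 14-3-3 protein beside Hspb1, fell by 0.80 ± 0.09. Lin37, beside Hspb6, rose by 0.50 ± 0.12, and Proser3 on its other side stood at -0.37 ± 0.16, without passing. The neighbours of Hspb7 and Hspb8 were not tested, their signals being too close to background.

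For each member that fell, the named gene with the closest profile over the 8 arrays was found by Euclidean distance, after setting each gene to its WT mean, among 12317 genes. For Hspb2 it was Cacnb1, the beta subunit of the muscle calcium channel (distance 0.26, difference -3.95). For Hspb3 it was Rcsd1, which binds actin capping protein (distance 0.19, difference -2.54). For Hspb8 it was Cd163, a macrophage scavenger receptor (distance 0.26, difference -1.12). Cd163 was dim, with means of -2.46 in WT and -3.58 in PCKO, against 5.57 and 4.35 for Hspb8. Setting genes to their WT mean removes such differences in level, so a close match need not be of like brightness. For Hspb7 the closest, Pheta2, was much further away (distance 0.84).

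Other cells of muscle also make small heat shock proteins, so their markers were read beside the members. Of 49 tested markers of 10 cell types, each read by its brightest probe, 38 were lower and none higher in PCKO. Over all genes 32.7% were lower and 38.3% higher. The part of the markers' cells in the members' differences was not tested. All 7 smooth muscle and pericyte markers fell, and their summed level relative to the 75th percentile was 51.6 to 69.8 in PCKO against 100.7 to 126.5 in WT. All 7 endothelial markers fell (20.0 to 23.8 against 42.1 to 45.3), as did all 6 fibroblast markers (237 to 345 against 548 to 822) and all 5 macrophage markers (10.2 to 20.5 against 26.1 to 32.8). All 8 skeletal muscle fibre markers fell (2037 to 2535 against 5856 to 7146). Of the 3 adipocyte and 2 red blood cell markers tested, none passed, and Lep, an adipocyte marker, was not well above background on enough arrays. Of 4 satellite cell markers 2 fell, of 3 tendon markers 2, and of 4 nerve and Schwann cell markers 1. Some markers had dimmer probes too. Those of Adgre1 (-1.30), Tnnt3 (-1.50) and Csf1r (-0.87) passed as lower. Those of Kdr (-0.26) and Pmp22 (-0.58), and a further probe of Csf1r (0.26), did not pass. With spike-in centring 5 of the 8 fibre, 4 of the 6 fibroblast, 1 of the 5 macrophage, 1 of the 7 endothelial and none of the 7 smooth muscle markers passed as lower. Over all genes 9.44% passed as lower there. The fibre markers Myh4, Tnnt3 and Tnni2 lost their call there and under quantile normalization (limma, adjusted p = 0.57, 0.38 and 0.55).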

How the data were processed

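Muscle RNA from 8 mice was hybridised in 1 colour to Agilent arrays, all on 1 slide. The deposited scanner files hold spot intensity values that, per the file headers, were extracted with Feature Extraction (10.7.3.1) as processed signals, with no scaling between arrays. An alternative used the authors' deposited log2 table, whose normalization no source used here describes.

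Intensities were turned to log2 and scaled to the array's 75th percentile. Control spots and flagged outlier spots were left out, and spots of a probe averaged. Probes well above background on at least 4 of 8 arrays were tested, each gene by its brightest probe, with names from RefSeq accessions (26582 of 55681 probes). Between 24179 and 25669 probes were well above background per array, and no spot was saturated. Replicates are separate mice, and their number limits precision. limma 3.58.1 in R 4.3.3 (lmFit, eBayes, two-sided, group only) compared the groups at an adjusted p of 0.05. Pairs of members used exact permutation tests. The fit was tested on simulated data with 66 or 67 of 12706 genes changed at each size, far fewer than the 71.0% that passed here. It recovered 41.8% of differences of 0.5 log2 units, 82.1% of those of 1 and 93.9% of those of 2. Genes named beyond the members were, in each list, up to 2 largest and 2 smallest passing differences, the chromosome neighbours and the nearest profiles. Other genes named were chosen after their values were seen. Members, lists and alternatives were chosen with earlier results of these data known. RefSeq supplied promoter sequence (GRCm38.p6), which need not be the build of the array's probes.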

Additional observations from a re-analysis of the deposited data

Results flagged for a closer look

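Among the 16 groups of 4 values tested with Dixon's test at the 95% level, 1 stood out. Hspb3 in WT replicate 4 read 4.29, above the 4.07 to 4.10 of the other WT mice. Chance gives about 1 such group in 20.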

How the results depend on the processing

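Hspb2 and Hspb3 kept direction and call in all settings run on them, as did the shift of Hspb2 against Cryab (-4.68 to -4.27). Members called lower numbered 2 with spike-in centring, where 9.44% of all genes were lower. They numbered 3 to 5 when a mouse was left out, where 30.9% to 31.8% of all genes were lower. Members called higher numbered 1, always Cryab, with quantile, spike-in, trend, normexp, deposited, replicate block, slide row block and slide row 1 settings. Over all genes 43.3%, 53.5%, 38.6%, 37.0%, 41.3%, 37.6%, 38.1% and 28.1% were higher in those settings, in that order. With a mouse left out, members called higher numbered 0 to 1, where 36.0% to 38.2% of all genes were higher. Cryab was 1.10 under quantile normalization, 1.19 with spike-ins, 0.52 with an intensity trend (adjusted p = 0.040), 0.78 with normexp, 1.14 in the deposited values, 0.52 with the slide row block (adjusted p = 0.013), 0.69 in slide row 1, and 0.39 to 0.71 with a mouse left out. With the replicate block Cryab passed at 0.52 (adjusted p = 0.034). The main fit did not pair the mice by replicate number. Same-numbered deviations correlated at 0.05 to 0.12, and all 8 arrays correlated best with their own number. Same-numbered arrays lay in the same slide row. What else they share was not tested. Hspb1 reversed to 0.35 (quantile), 0.56 (spike-ins), 0.13 (normexp) and 0.24 (slide row 1), and ranged from -0.33 to 0.19 with a mouse left out. Hspb6 reversed to 0.15 (quantile), 0.35 (spike-ins) and 0.23 (deposited), passed at -0.33 with the slide row block, and ranged from -0.44 to -0.18 with a mouse left out. Hspb7 lost its call at -0.52 (spike-ins), -1.20 (no filter on dim probes) and -0.81 (slide row 1), and ranged from -1.54 to -0.82 with a mouse left out. Hspb8 lost its call at -0.54 (spike-ins). Of 38 genes of the related lists, 22 were lower and 7 higher, against 32.7% and 38.3% of all genes. The lower ones numbered 10 with spike-ins and 14 in the deposited values, and the higher ones 12 (quantile), 15 (spike-ins), 11 (normexp) and 4 (slide row 1). Lower cell markers numbered 38, against 14 with spike-ins and 19 in the deposited values. Higher markers numbered 2 with spike-ins, 1 in slide row 2 and 0 to 1 with a mouse left out. Over all genes 9.44% were lower with spike-ins and 28.7% in the deposited values, and 27.2% were higher in slide row 2. Deposited values hold fewer genes, and a single slide row fewer mice. Otherwise the cause was not tested. Hspb1 and Hspb3 were not run in the deposited values.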
